A study of Arabidopsis thaliana with 15 samples.

Results

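A set of 36 Arabidopsis genes was chosen for less transcript in individually darkened leaves (IDL) than in light leaves. IDL were leaves darkened individually on a lit plant. For leaves of plants darkened as a whole (darkened plants, DP), the choice asked for a level near that of light. The members were chosen by a rule on measured values. The rule took log2 of the deposited intensities and the mean of the 3 arrays of each group, asked for IDL minus light at -1 or below at day 3 and at day 6, and asked for DP minus light within 0.5 of 0 at both days. It was met by 36 of the 16179 probe sets that the annotation paired with exactly 1 gene. A difference of 1 on this scale is a 2-fold change in intensity. Because these differences chose the members, IDL and DP against light, and IDL against DP, are given below as a description, and where limma's calls for them are counted nothing is read from the counts. The difference between day 6 and day 3 in IDL was not set by the rule. In DP the rule limited the size of this difference to 1, which also bears on the comparison of the changes between treatments. All these differences come from the same arrays and group means that the rule used, so their p-values are not independent of the choice of members.

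The arrays measured RNA from leaves of Arabidopsis thaliana ecotype Col-0 without any mutation or transgene, grown in short days. The 5 groups were IDL after 3 days and after 6 days, DP after 3 days and after 6 days, and light at day 0, with 3 arrays each. Every array was a pool of 2 leaves from independent plants, taken at noon. In IDL, full-grown leaves on both sides of a rosette were wrapped in foil-coated covers and the rest of the plant kept its light, whereas DP plants stood in closed dark boxes. The light group exists at day 0 alone, which means that darkness and 3 or 6 more days of leaf age cannot be told apart against light, while IDL and DP of one day share that age. In pooled whole leaves, fewer cells of a type and less RNA per cell cannot be told apart either.

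As background, a leaf shaded alone on a lit plant is known to senesce quickly, exporting its nutrients to the rest of the plant, while leaves of a plant kept wholly in the dark are known to lose chlorophyll more slowly. Cortical microtubules, polymers of alpha- and beta-tubulin, lie under the plasma membrane of plant cells and guide the cellulose synthases that spin the wall's microfibrils. Motor proteins of the kinesin family, bundling proteins of the MAP65 family and scaffold proteins of the IQ-domain (IQD) family bind or attach to these microtubules.

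The members formed a small fraction of the genes lowered by individual darkening. Of 1067 probe sets with IDL minus light at -1 or below at both days, 764 (71.6%) were also at -1 or below in DP at both days, 976 (91.5%) were at least 0.5 below light in DP at both days, and 36 (3.37%) lay within 0.5 of light in DP at both days. A further 7 (0.656%) were at least 0.5 above light in DP at both days, 31 (2.91%) were within 0.5 at day 3 only, and 15 (1.41%) at day 6 only. The same rule with IDL and DP exchanged was met by 27 probe sets, and its mirror, raised only in IDL, by 102.

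**Figure D1:**
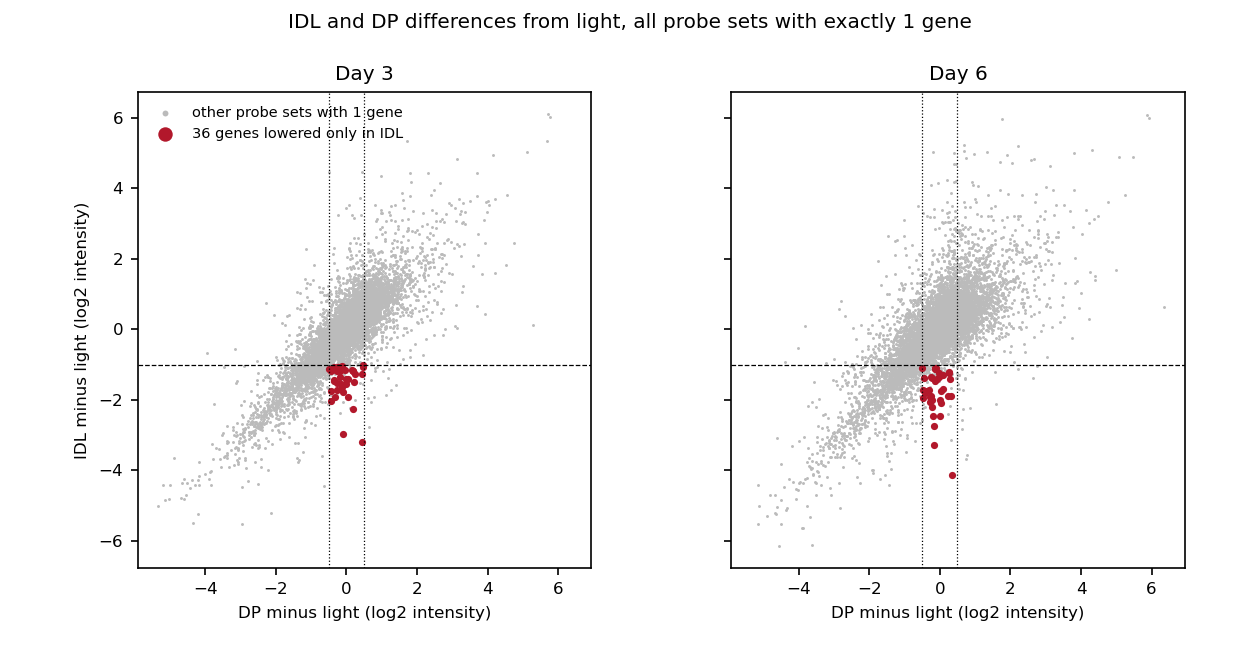
Difference from light (log2 intensity, mean of 3 arrays per group) in IDL (vertical) against DP (horizontal) at day 3 and day 6 for 16179 probe sets with exactly 1 gene, with the bounds of the rule as broken lines. The 36 red points are the members, which lie below -1 vertically and within 0.5 of 0 horizontally at both days.

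Among the 36 members the median of IDL minus light was -1.37 at day 3 (from -3.19 to -1.01) and -1.74 at day 6 (from -4.12 to -1.08). The corresponding medians over all 16179 probe sets were 0.06 and 0.03. In DP the members' median was -0.12 at day 3 and -0.14 at day 6, with a range of -0.49 to 0.46 and of -0.50 to 0.34. The standard error of such a difference in limma's fit had a median of 0.15 over the members and ran from 0.11 to 0.30. At day 3, 13 members were at -1.5 or below in IDL and 4 at -2 or below, and at day 6 these counts were 21 and 9. All 6 IDL arrays lay below all 9 DP and light arrays in each of the 36 members, as in 3.07% of all genes tested. In limma's fit, in which Benjamini-Hochberg adjusted p under 0.05 is a call, 36 members were called lower in IDL at each day, where 18.8% of all genes were called lower at day 3 and 19.1% at day 6, and 36 were called lower in IDL than in DP, where the share of all genes was 7.99% at day 3 and 13.9% at day 6. The rule fixed these counts, and nothing is read from them.

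**Figure D2:**
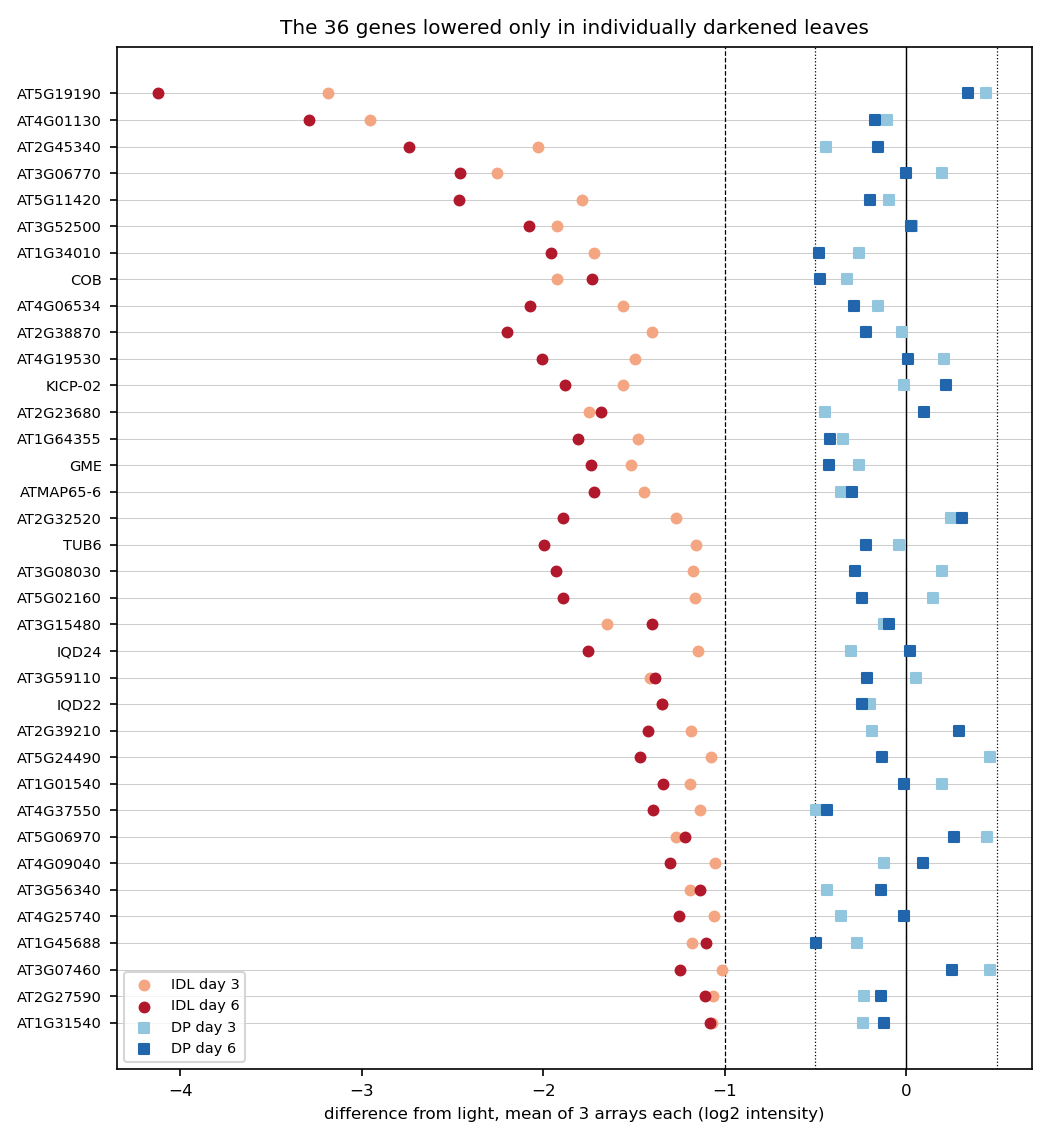
Difference from light (log2 intensity, mean of 3 arrays per group) of each of the 36 members in IDL (circles) and DP (squares) at day 3 (pale) and day 6 (dark), with the bounds of the rule as broken lines. AT5G19190 lies farthest left, at -3.19 at day 3 and -4.12 at day 6 in IDL, with 0.44 and 0.34 in DP.

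Of the 36 members, 7 carried a gene symbol, as did 1625 of the 16174 genes in the fit. What is known of these 7, or of their families, is given with each gene as background. How many of all genes with a symbol have similar roles was not counted. COB (COBRA, AT5G60920) encodes a membrane-anchored protein of the outer cell surface that is needed for the orientation of cellulose microfibrils in expanding root cells. The intensities of COB were 243, 219 and 239 in IDL at day 3, 290.3, 261 and 252 in IDL at day 6, 736, 519.6 and 926 in DP at day 3 and 664, 675 and 581 in DP at day 6, against 929, 899 and 838 in light. All IDL arrays lay far below the others, 1 DP array of day 3 lay within the light range, and the 3 DP arrays of day 6 lay below it. Its mean was 3.80-fold lower in IDL than in light at day 3 and 3.32-fold lower at day 6, or -1.93 and -1.73 on the log2 scale (SE 0.15), against -0.33 and -0.48 in DP.

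KICP-02 (AT3G50240) encodes a kinesin-related motor protein. In IDL, KICP-02 read 16.7, 18.4 and 16.1 at day 3 and 13.98, 14.1 and 12.9 at day 6, and in DP 49.1, 45.6 and 55.3 at day 3 and 49.6, 59.7 and 67.3 at day 6, against 71.2, 46.4 and 38.4 in light. The light arrays were widely spread, and all 6 DP arrays lay inside their range, while the IDL arrays lay below all others. ATMAP65-6 (AT2G01910) is a member of the MAP65 family of microtubule-associated proteins. On its 15 arrays ATMAP65-6 read 21.1, 20.5 and 19.4 in IDL at day 3, 16.99, 15.6 and 17.9 in IDL at day 6, 40.99, 41.5 and 47.4 in DP at day 3 and 40.1, 48.1 and 47.3 in DP at day 6, against 58.9, 54.4 and 53.1 in light. Its DP arrays all lay below the light arrays, and its IDL arrays lay below the DP arrays. IDL minus light was -1.56 at day 3 and -1.88 at day 6 for KICP-02 (SE 0.17), and -1.45 and -1.72 for ATMAP65-6 (SE 0.11). DP minus light was -0.01 and 0.22 for KICP-02, and -0.36 and -0.30 for ATMAP65-6.

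TUB6 (AT5G12250) encodes a beta-tubulin chain. TUB6 had intensities of 90.5, 73.01 and 113 in IDL at day 3 and 55.96, 57.4 and 40.6 in IDL at day 6, 179, 219 and 194 in DP at day 3 and 203, 166 and 154 in DP at day 6, against 234, 207 and 171 in light. The day 6 arrays of IDL lay below those of day 3, and the DP and light arrays overlapped. IDL minus light was -1.16 at day 3 and -1.997 at day 6 (SE 0.17), with -0.04 and -0.22 in DP. Of the IQ-domain proteins, IQD22 (AT4G23060) and IQD24 (AT5G07240) were members. The intensities of IQD22 were 15.8, 16.9 and 17.9 in IDL at day 3, 15.1, 15.9 and 19.95 in IDL at day 6, 44.6, 32.4 and 36.1 in DP at day 3 and 35.5, 41.1 and 32.5 in DP at day 6, against 45.6, 42 and 40.9 in light. In IQD22 both days of IDL overlapped, and 1 DP array of each day lay inside the light range. In IDL, IQD24 read 25.6, 25.8 and 26.8 at day 3 and 18.1, 16.6 and 16.8 at day 6, and in DP 46.2, 43.8 and 50.9 at day 3 and 51.6, 71.7 and 54.4 at day 6, against 57.2, 56.8 and 59.4 in light. In IQD24 the day 6 arrays of IDL lay below those of day 3, the DP arrays of day 3 lay below light, and those of day 6 lay on both sides of it. IDL minus light was -1.34 at both days for IQD22 (SE 0.13), and -1.15 and -1.75 for IQD24 (SE 0.12). The corresponding DP values were -0.20 and -0.24 for IQD22, and -0.30 and 0.02 for IQD24.

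The remaining gene with a symbol, GME (AT5G28840), encodes GDP-D-mannose epimerase, an enzyme on the path to ascorbate that also supplies a sugar nucleotide for wall polysaccharides. On its 15 arrays GME read 117, 176 and 109.5 in IDL at day 3, 124, 106 and 108 in IDL at day 6, 337, 335 and 273 in DP at day 3 and 284, 271 and 284 in DP at day 6, against 385, 366 and 375 in light. All DP arrays lay below the light arrays, and all IDL arrays lay below the DP arrays. IDL minus light was -1.52 at day 3 and -1.74 at day 6 (SE 0.14), with -0.26 and -0.43 in DP. The genes with symbols were grouped by known role after the members had been seen, 29 members carried no symbol, and no enrichment of any role was tested.

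**Figure D3:**
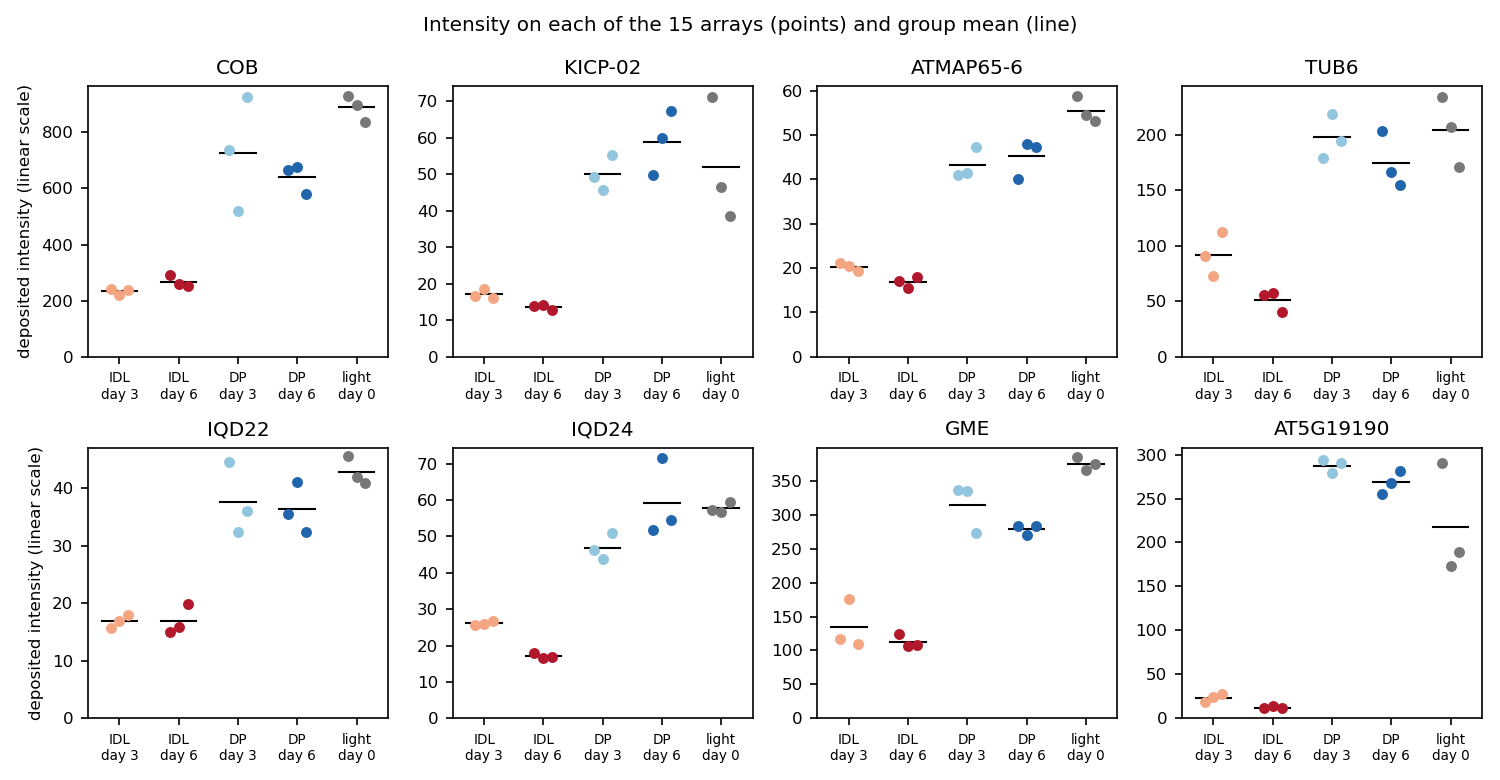
Deposited intensity (linear scale) on each of the 15 arrays for the 7 members with a symbol and for AT5G19190, the member with the largest fall, with group means as lines. In each panel the 6 IDL arrays (left) lie below the DP arrays (middle) and the light arrays (right).

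By size of the mean fall over both days in IDL, 10 of the first 12 members carried no symbol. AT5G19190 had the largest fall, and it missed the rule after quantile normalization of the arrays. AT5G19190 had intensities of 19, 24.4 and 27.2 in IDL at day 3 and 11.6, 13.6 and 11.4 in IDL at day 6, 294, 279 and 289.9 in DP at day 3 and 256, 268 and 282 in DP at day 6, against 290, 173 and 189 in light. It was 9.10-fold lower in IDL than in light at day 3 and 17.4-fold lower at day 6, while every DP array lay above the light arrays of replicates 2 and 3. AT4G01130 came next. The intensities of AT4G01130 were 28.9, 38.4 and 27.3 in IDL at day 3, 20.8, 27.03 and 26.9 in IDL at day 6, 254, 204 and 219 in DP at day 3 and 184, 225 and 239 in DP at day 6, against 299, 223 and 212 in light. The fold was 7.76 at day 3 and 9.78 at day 6, and its DP and light arrays overlapped. In IDL, AT2G45340 read 57.2, 78.8 and 47.01 at day 3 and 44.6, 33.3 and 32.6 at day 6, and in DP 174, 178 and 187 at day 3 and 251, 181 and 229.5 at day 6, against 279, 218 and 238 in light. In AT2G45340 the DP arrays of day 3 lay below light and 2 of the 3 DP arrays of day 6 lay within the light range, with IDL minus light at -2.03 and -2.74.

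On its 15 arrays AT3G06770 read 12.3, 11.5 and 12.1 in IDL at day 3, 9.65, 10.7 and 10.8 in IDL at day 6, 68.97, 57.1 and 70.4 in DP at day 3 and 49.6, 64.6 and 57.4 in DP at day 6, against 78.3, 42.6 and 55.3 in light. For AT3G06770 the light arrays spread widely and took in all 6 DP arrays. AT5G11420 had intensities of 18.4, 26.9 and 19.9 in IDL at day 3 and 9.88, 13.9 and 17.4 in IDL at day 6, 76.5, 63.8 and 67.8 in DP at day 3 and 52.97, 76.8 and 65.8 in DP at day 6, against 89.6, 70.1 and 64.1 in light. Light replicate 1 of AT5G11420 was the brightest of its 15 arrays, and the day 6 arrays of IDL lay below those of day 3. The intensities of AT3G52500 were 11.2, 14.8 and 16.4 in IDL at day 3, 11.3, 13.2 and 13.2 in IDL at day 6, 59.2, 45.2 and 59.7 in DP at day 3 and 50.97, 59.4 and 52.2 in DP at day 6, against 70.9, 47.5 and 44.3 in light. In AT3G52500 both days of IDL overlapped, and every DP array lay within the light range. IDL minus light at day 3 and day 6 was -2.25 and -2.46 for AT3G06770, -1.78 and -2.46 for AT5G11420, and -1.92 and -2.08 for AT3G52500. The IDL mean of AT3G06770 at day 6 (3.38 on the log2 scale) lay below the lower quartile of all 1-gene probe sets in that group (3.46). Those of AT5G19190 (3.60), AT3G52500 (3.65), AT5G11420 (3.74) and KICP-02 (3.77) lay above it but were also low. Root and pollen markers, of tissues not sampled, had means between 3.07 and 3.74 in all groups. No background values were used, so the size of a fall that ends this low is uncertain.

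In IDL, AT1G34010 read 17.96, 19.2 and 16.95 at day 3 and 15.03, 15.4 and 15.3 at day 6, and in DP 55.5, 40.9 and 53.3 at day 3 and 42.1, 47.6 and 38.4 at day 6, against 59.02, 53.6 and 65.7 in light. In AT1G34010 the DP arrays of day 6 all lay below light, and so did all but 1 of day 3. On its 15 arrays AT4G06534 read 27.01, 43.4 and 26.9 in IDL at day 3, 20.2, 20.98 and 25.6 in IDL at day 6, 80.4, 86.2 and 84.4 in DP at day 3 and 63.7, 93.9 and 74.1 in DP at day 6, against 118, 77.9 and 87.4 in light. Light replicate 1 was again the brightest array of AT4G06534. AT2G38870 had intensities of 34.6, 31.6 and 28.5 in IDL at day 3 and 16, 22.8 and 16.2 in IDL at day 6, 76.2, 129.7 and 55.2 in DP at day 3 and 91.6, 67.01 and 59.2 in DP at day 6, against 119, 68.6 and 69.9 in light. AT2G38870 varied widely in DP at day 3, where its brightest array was above all light arrays. The intensities of AT4G19530 were 102, 155 and 164 in IDL at day 3, 97.6, 97.05 and 94.1 in IDL at day 6, 421, 463 and 459.5 in DP at day 3 and 412, 372 and 386 in DP at day 6, against 474, 321 and 379.8 in light. In AT4G19530 every DP array lay within the light range. IDL minus light at day 3 and day 6 was -1.72 and -1.96 for AT1G34010, -1.56 and -2.07 for AT4G06534, -1.40 and -2.20 for AT2G38870, and -1.49 and -2.01 for AT4G19530.

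The other 19 members carried no symbol and stood outside the 12 largest falls. Their IDL minus light ran from -1.75 to -1.01 at day 3 (median -1.18) and from -1.93 to -1.08 at day 6 (median -1.38). Single arrays of these members read 14.2 to 329 in IDL at day 3, 13.7 to 246 in IDL at day 6, 24.8 to 860.1 in DP at day 3 and 24.5 to 557 in DP at day 6, against 30.2 to 700.2 in light. DP minus light ran from -0.49 to 0.46 at day 3 and from -0.50 to 0.31 at day 6.

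The DP means of the members lay on both sides of light. DP was below light at both days in 19 members, above it at both days in 6, and on different sides of it at the 2 days in 11. The members' DP medians, slightly below 0 as deposited, were 0.04 at day 3 and 0.02 at day 6 after quantile normalization of the arrays. After that normalization DP was below light at both days in 10 members, above it in 13 and on different sides in 13, so the side on which DP lay was not stable for differences this small. By limma's adjusted p, 6 members were called lower and 4 higher in DP at day 3, where 18% and 17.2% of all genes were called. At day 6, 7 members were called lower and 0 higher, where 19.6% and 20.3% of all genes were called. At that day 10 of the 36 members had an unadjusted p under 0.05, as did 7455 of all 16174 genes. The rule held these differences within 0.5, and nothing is read from the counts. The arrays of DP and light did not overlap in 11 members at day 3 and in 11 at day 6, against 44.3% and 46.8% of all genes.

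Between day 3 and day 6 the level in IDL went down further in part of the members. The median of IDL day 6 minus IDL day 3 was -0.25 over the 36 members, -0.14 over the other 1031 probe sets lowered in IDL and -0.04 over all 16174 genes. The mean was lower at day 6 in 29 members. That count was not made over all genes, whose median was also below 0, and nothing is read from it. In 17 members all day 6 arrays lay below all day 3 arrays, where 14.7% of all genes did so. In limma's fit 10 members (27.8%) passed as lower and 0 as higher, against 3.83% lower and 4.82% higher of all genes and 14.2% lower of the other lowered probe sets. An unadjusted p under 0.05 was reached by 15 of the 36 members, by 328 of the other 1031 lowered probe sets and by 3360 of all 16174 genes. No test compares these shares, because the members were picked from the same arrays.

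The largest of these falls was that of AT5G19190, by 0.94 on the log2 scale (SE 0.16, limma's adjusted p = 0.000456). The fall of AT5G19190 ended at a low level, so its size is uncertain. TUB6 fell by 0.84 (SE 0.17, limma's adjusted p = 0.00203), and AT2G38870 by 0.80 (SE 0.25, limma's adjusted p = 0.0475). IQD24 fell by 0.60 (SE 0.12, limma's adjusted p = 0.00193). The others that passed were AT3G08030, AT5G02160, AT2G45340, AT5G11420, AT2G32520 and AT4G19530, with falls between 0.51 and 0.76 and adjusted p between 0.000749 and 0.0395. Among the remaining genes with symbols the difference was -0.32 for KICP-02, -0.28 for ATMAP65-6, -0.22 for GME, 0.00 for IQD22 and 0.19 for COB, and none of these passed (limma's adjusted p from 0.147 to 0.999). Without replicate 2 of IDL at day 3 the number of members that passed was 6, and AT2G45340, AT2G38870, AT4G19530 and AT5G11420 were the ones lost (adjusted p from 0.0787 to 0.177). Over the 15 fits that left out 1 array each, the call was lost in 0 for the other 6 members. It was lost for AT2G38870 in 8 fits, those without any 1 of the IDL day 3 arrays, IDL day 6 replicate 1 or 3, DP day 3 replicate 1, and DP day 6 replicate 2 or 3 (adjusted p from 0.0512 to 0.167). For AT4G19530 it was lost in 5 fits (IDL day 3 replicate 2 or 3, or any IDL day 6 array, adjusted p from 0.0944 to 0.187). For AT5G11420 it was lost without IDL day 3 replicate 2 or IDL day 6 replicate 1 or 2, and for AT2G45340 without IDL day 3 replicate 2 or IDL day 6 replicate 3 (adjusted p from 0.0514 to 0.175 over these losses).

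In DP the rule allowed a difference between days of at most 1 in size. DP day 6 minus DP day 3 had a median of -0.09 over the members and of 0.00 over all genes. It passed in 1 member (2.78%), AT5G24490, where 2.53% of all genes were called lower. In IDL, AT5G24490 read 279.9, 329 and 231 at day 3 and 246, 179.9 and 214 at day 6, and in DP 860.1, 760.3 and 793 at day 3 and 526, 512 and 557 at day 6, against 700.2, 491 and 576 in light. It fell by 0.60 from day 3 in DP (SE 0.15, limma's adjusted p = 0.0202), and every DP array of day 3 lay above the light arrays. The call was lost in 4 of the 15 fits that left out 1 array (adjusted p from 0.0535 to 0.0902), those without DP at day 3 replicate 1 or 3 and without DP at day 6 replicate 1 or 2. A further 5 members had an unadjusted p under 0.05. That makes 6 of the 36 members, a share similar to that of all genes (2687 of 16174).

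The change between days was also compared between the treatments, as IDL day 6 minus day 3 less DP day 6 minus day 3 (the interaction of treatment and day). Its median was -0.27 over the members and -0.03 over all genes. It passed in 4 members (11.1%), each more negative in IDL, where 2.23% of all genes passed in that direction and 3.01% of the other lowered probe sets. These were AT2G45340, IQD24, AT5G19190 and AT2G32520. With 1 array left out the count ran from 2 to 5, and the call was lost in 9 of the 15 fits for AT5G19190 (adjusted p from 0.054 to 0.0829). Those fits lacked any 1 of the DP day 3 arrays, DP day 6 replicate 2 or 3, IDL day 3 replicate 2 or 3, or IDL day 6 replicate 1 or 3. For AT2G32520 it was lost in 4 fits, those without replicate 1 of DP day 3, 2 of DP day 6, 3 of IDL day 3 or 1 of IDL day 6 (adjusted p from 0.0605 to 0.0715). An unadjusted p under 0.05 was reached by 10 of the 36 members, by 259 of the other 1031 lowered probe sets and by 3102 of all 16174 genes.

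**Figure D4:**
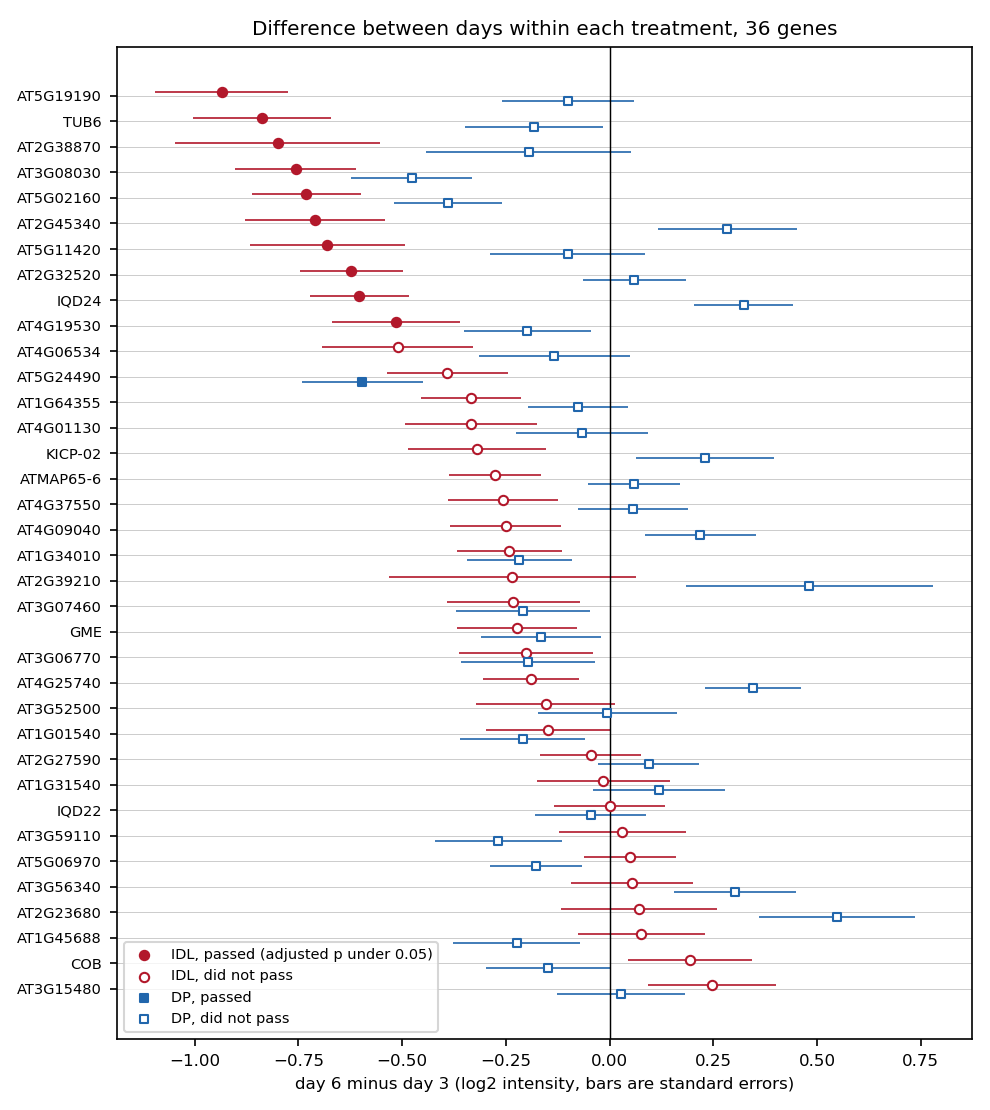
Day 6 minus day 3 (log2 intensity, bars are standard errors, n = 3 arrays per group) of the 36 members in IDL (circles) and DP (squares), with filled symbols where limma's adjusted p was under 0.05. The 10 filled circles lie at -0.51 or below, and AT5G24490 has the 1 filled square.

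Relatives of the members were set beside them, in families picked after the members were known. Of the 6 tubulin genes measured beside TUB6, 3 were lower in IDL at day 6 by limma's adjusted p, and 1 in DP, where 19.1% and 19.6% of all genes were called lower. TUB5 was lower in both treatments, at -2.22 and -2.73 in IDL at day 3 and day 6 and at -0.85 and -2.06 in DP. TUB7 was 0.58 above light in DP at day 3 (SE 0.16, limma's adjusted p = 0.0077) and -0.67 in IDL at day 6 (SE 0.16, limma's adjusted p = 0.00199), while IDL at day 3 (-0.31) and DP at day 6 (0.35) did not pass. TUB1 was at -0.72 in IDL at day 6 (SE 0.17, limma's adjusted p = 0.00156) and at -0.25 in DP, which did not pass. TUB9 and TUA6 were lower in IDL at day 3, at -0.42 and -0.41 (limma's adjusted p = 0.0134 for each), while their DP values of -0.16 and -0.08 did not pass, and the direct comparison of IDL with DP did not pass for either (limma's adjusted p = 0.214 and 0.0849). TUB9, TUA6 and TUBG1, the gamma-tubulin gene, did not pass at day 6 in either treatment. Without TUB6 the tubulins' median at day 6 was -0.50 in IDL and -0.27 in DP.

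Of the 12 IQD genes measured beside the members IQD22 and IQD24, 6 were lower in IDL at day 6 and 0 higher, where 19.1% of all genes were called lower and 20.6% higher. In DP 5 of the 12 were lower and 3 higher, where the shares of all genes were 19.6% and 20.3%. IQD31 was the lowest, at -3.23 in IDL and -2.31 in DP at day 6, and IQD23 was at -1.15 and -0.67. IQD18 was higher than light in both treatments at day 3 (1.08 in IDL and 1.83 in DP), and at day 6 it passed in DP (1.01) and not in IDL (0.32). The median over these 12 at day 6 was -0.28 in IDL and -0.01 in DP, against 0.03 and 0.05 over all genes. A direct comparison of IDL with DP at day 6 passed as lower in 4 of these 12 and as higher in 0, where 13.9% and 15.1% of all genes passed.

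Of 34 gene lists for leaf functions, 1 of them of reference genes, 7 had no measured gene, and 2 held a member. The lists given by locus had 282 entries, of which 50 were measured, so a list without a member says little. The lists built from name patterns matched RefSeq symbols and synonyms alone, so the 29 members without a symbol could hardly enter them. AT5G24490 stood in the list named plastid ribosomal proteins, of which 10 were measured. Whether each entry is a structural part of the ribosome was not checked. Of the other 9, all were lower than light in IDL at both days and 7 were also lower in DP at both days. Of all genes, 18.8% and 19.1% were called lower in IDL at day 3 and day 6, and 18% and 19.6% in DP. The medians of these 9 at day 6 were -1.91 in IDL and -1.18 in DP. AT4G01310 was at -2.61 in IDL and -1.18 in DP at day 6, AT4G17560 at -2.36 and -1.51, and AT1G29070 at -2.07 and -1.28. The nearest to the member's pattern were AT2G43030, at -1.16 in IDL and -0.03 in DP at day 6, and AT5G65220, at -0.71 and 0.11, both singled out after their values were seen. IDL was below DP at day 6 by limma's adjusted p in 7 of the 9, where 13.9% of all genes were called.

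TUB6 stood in a list of chromatin and cell cycle genes. Of the other 18 measured, 3 were higher and 5 lower in IDL at day 6, and 3 higher and 4 lower in DP, where 20.6% and 19.1% of all genes were higher and lower in IDL, and 20.3% and 19.6% in DP. HON4, a linker histone gene of this list, was at 1.06 in IDL and 2.46 in DP at day 6. A list of 61 cell wall enzymes, built from name patterns that a member without a symbol could hardly match, held no member. Of the 61, 20 were lower and 5 higher in IDL at day 6, and 18 lower and 13 higher in DP. Its lowest members, the endoglucanase genes GH9C2 and GH9B7 and the expansin gene EXPA8, were low in both treatments at day 6, at -5.13, -4.69 and -4.20 in IDL and -4.36, -3.51 and -3.20 in DP.

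**Figure D5:**
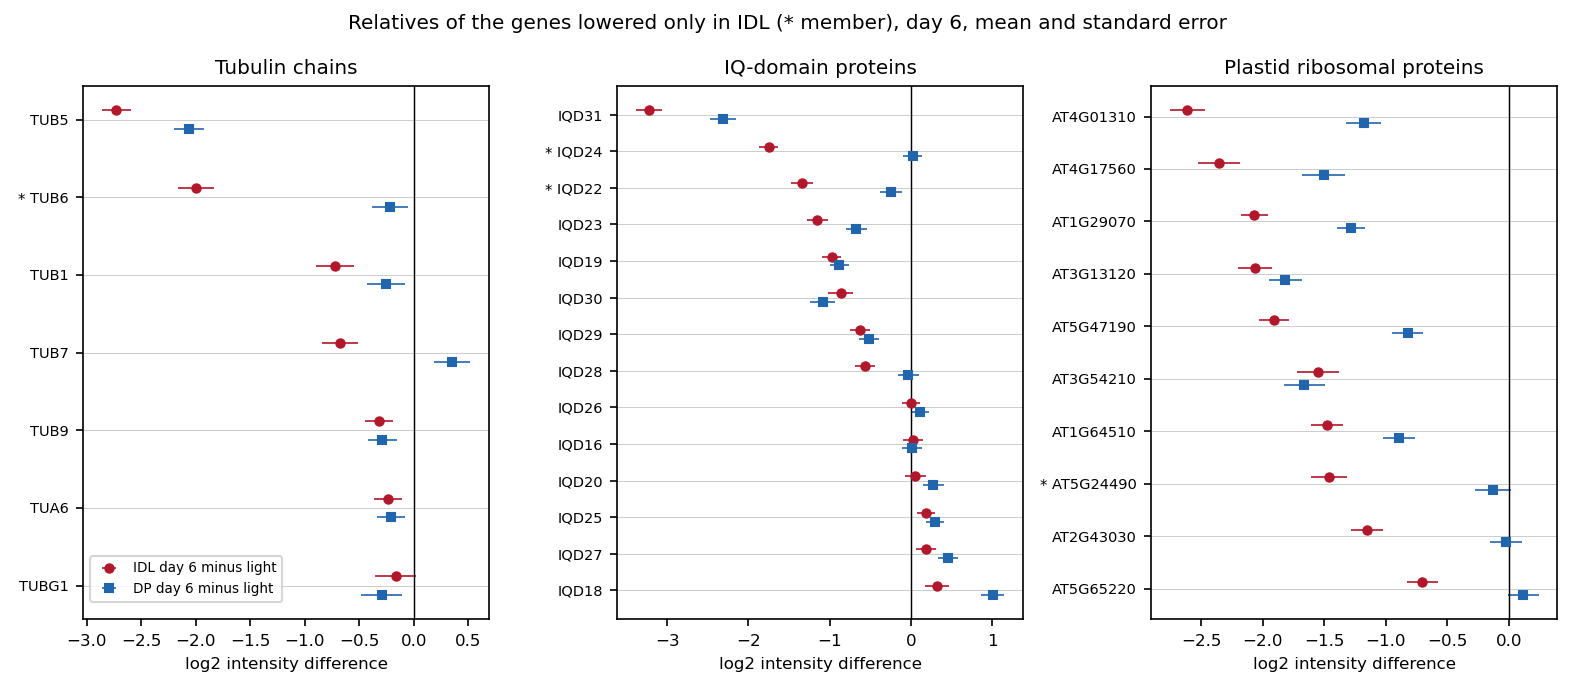
Day 6 difference from light (log2 intensity, bars are standard errors, n = 3 arrays per group) in IDL (circles) and DP (squares) for the measured tubulin genes, IQD genes and plastid ribosomal protein genes, with members starred. TUB5, IQD31 and 7 of the ribosomal protein genes are low in both treatments, and the starred genes are low in IDL with DP near 0.

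The 36 genes lay on all 5 chromosomes (5, 7, 8, 7 and 9 genes on chromosomes 1 to 5), and 0 pairs of them were neighbours in RefSeq gene order. AT3G07470, which follows the member AT3G07460 in that order, met the other bounds of the rule and missed the one for IDL at day 6, with -0.86. The bounds cut through a continuum at several places. Just inside the bound for IDL at day 3 were AT3G07460 (-1.01), AT4G09040 (-1.05) and AT4G25740 (-1.06), and just outside it were ACLB-1 (-0.997), AT5G22070 (-0.996) and AT4G32790 (-0.994), with 45 probe sets outside that met the other bounds. For IDL at day 6, AT1G31540 (-1.08), AT1G45688 (-1.10) and AT2G27590 (-1.11) were inside, and 4 were outside, of which AT5G65440 (-0.92) and AT4G28100 (-0.90) came closest.

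In DP the nearest members to the lower bound at day 3 were AT4G37550 (-0.49), AT2G23680 (-0.45) and AT2G45340 (-0.44), and outside stood 12, from OTC (-0.52), AT1G28350 (-0.58) and AT3G58610 (-0.58). At day 6 AT1G45688 (-0.50), AT1G34010 (-0.48) and COB (-0.48) were inside, and 28 were outside, from AT5G67385 (-0.52), AT3G08600 (-0.57) and AT3G26700 (-0.60). At the upper bound of day 3 AT3G07460 (0.46), AT5G24490 (0.46) and AT5G06970 (0.44) were inside, against BZIP61 (0.63), AT5G18500 (0.69) and AT3G05640 (1.17) outside. At the upper bound of day 6 AT5G19190 (0.34), AT2G32520 (0.31) and AT2G39210 (0.29) were inside, and AT3G60320 (0.52), AT1G04430 (0.54) and AT1G72645 (0.62) outside.

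Light replicate 1 was the brightest light array in 25 of the 36 members, with a median deviation from the group mean of 0.20 on the log2 scale, where its median over all probe sets with 1 gene was 0.02. The spread of the light arrays (SD) had a median of 0.24 over the members and of 0.14 over all. Without that array the rule was met by 41 probe sets, 29 of them members. The rule was also applied anew to 2 of the 3 replicate numbers, which need not give the 36 members. It was met by 36, 41 and 42 probe sets, which were then read in the held-out replicate. In the held-out arrays IDL was below light at both days in all of them, and IDL was also below DP at both days in all of them. These comparisons are shared by 34.1% to 36.4% and by 29.6% to 31.4% of all probe sets with 1 gene. IDL stayed at -1 or below at both days in 32 (88.9%), 25 (61%) and 22 (52.4%), against 6.08% to 7.06% of all. DP stayed within 0.5 of light at both days in 17 (47.2%), 21 (51.2%) and 30 (71.4%), against 59.9% to 63.7% of all. With replicate 1 or 2 held out this share was below that of all probe sets, and with replicate 3 above it. The whole rule was met in the held-out arrays by 14 (38.9%), 13 (31.7%) and 17 (40.5%), against 0.272%, 0.198% and 0.235% of all.

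Few markers of single cell types were measured, and the array cannot show which cells held the members' RNA. Of 7 mesophyll markers 1 was measured, RCA, which encodes Rubisco activase. It had log2 levels of 9.07 and 9.27 in IDL at day 3 and day 6 and 9.06 and 8.80 in DP, against 10.98 in light. Of 5 guard cell markers 2 were measured. AT1G22690 was at 4.55 and 3.84 in IDL and 5.50 and 4.96 in DP, against 7.01 in light, while FMA, a regulator of guard cell fate, was between 5.54 and 5.77 in the darkened groups, against 5.38 in light. The part of these changes in the members' levels was not tested. No marker of epidermis, trichome, phloem or xylem was measured (0 of 4, 0 of 3, 0 of 3 and 0 of 3). The root marker EXPA7 and the pollen markers PPME1 and AT5G45880, of tissues not sampled, had means between 3.07 and 3.74 in all groups.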

How the data were processed

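The 15 arrays measured leaf RNA in 5 groups of 3. The deposited values are linear intensities, 1 for each probe set on each array, which the authors made with the R package oligo per the submitters' processing notes. How oligo corrected, normalized and summarised them was not found in the labels. The values had array medians of 18.31 to 19.56 and no detection calls were used. The number of arrays limits the precision.

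Here log2 of the intensities was taken and all 16174 genes of probe sets with exactly 1 gene (the brightest where a gene had several) were fitted with limma 3.58.1 in R 4.3.3, a mean per group (lmFit and eBayes, prior of 10.52 degrees of freedom), with Benjamini-Hochberg adjustment over all genes and two-sided tests. Steps were tested on simulated data. Symbols came from RefSeq's TAIR10.1 gene table, which matched 16067 of 16179 probe sets and all 36 members. No coordinates are given.

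The members, gene lists, families and tests were chosen with earlier results of these data known. Named are the members with a symbol, the 12 with the largest falls, the 3 largest called differences between days, the 3 probe sets on either side of each bound, members of lists and up to 3 other genes per list with the largest change. The genes named beyond this rule are the other called members, TUB1, TUB7, TUB9, TUA6, TUBG1, IQD18, IQD23, AT2G43030, AT5G65220 and HON4, chosen after their values were seen. Alternatives were other scalings, priors, weights, fits of fewer arrays, the replicate block, filters on dim probe sets, all probe sets, other thresholds and each array left out.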

Additional observations from a re-analysis of the deposited data

Results flagged for a closer look

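Effects of time that differed between the treatments were seen in 4 members, where day 6 minus day 3 was more negative in IDL than in DP by a test of the difference itself, limma's interaction term. For AT2G45340 the difference between treatments was -0.99 (SE 0.24, limma's adjusted p = 0.0143), from -0.71 in IDL and 0.28 in DP. For IQD24 it was -0.93 (SE 0.17, limma's adjusted p = 0.00151), from -0.60 in IDL and 0.32 in DP. For AT5G19190 it was -0.84 (SE 0.23, limma's adjusted p = 0.0314), from -0.94 in IDL and -0.10 in DP, and for AT2G32520 it was -0.68 (SE 0.18, limma's adjusted p = 0.0229), from -0.62 in IDL and 0.06 in DP. In all 4 the rule had held the DP means within 0.5 of light at both days. All arrays of IDL at day 6 lay below all arrays of IDL at day 3 in these 4 genes. The IDL mean of AT5G19190 at day 6 was low (3.60 on the log2 scale), so the size of its difference is uncertain. AT5G19190 and AT2G32520 missed the rule after quantile normalization and AT2G45340 after centring on the reference genes, while IQD24 met it under these scalings and after median centring. No single group had enough arrays to test for a sample that stands apart.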

How the results depend on the processing

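Membership depended on the thresholds and on the arrays. The rule was met by 36 probe sets as deposited, by 42 after centring arrays on their median (34 of them members), 31 after quantile normalization (27), 40 after centring on 7 reference genes (32) and 44 with the median of the arrays in place of the mean (32). It was met by 85 of all probe sets when those with several genes or none were added, by 12 with IDL at -1.5 or below and by 16 with DP within 0.25. With 1 array left out it was met by 33 to 43, and 21 members met it in all 15 such settings. Quantile normalization gave the members a median DP difference of 0.04 at day 3 and 0.02 at day 6, against -0.12 and -0.14 as deposited. After centring on the reference genes, DP at day 6 had a median difference of 0.14 over all probe sets with 1 gene and of -0.05 over the members. Members that passed in IDL day 6 against day 3 numbered 6 to 10 with 1 array left out, 7 at an adjusted p under 0.01 and 8 to 10 under the other settings. For DP day 6 against day 3 the count was 1, with 2 in a fit of only the arrays compared, 0 at an adjusted p under 0.01, and 0 to 3 with 1 array left out. For the interaction it was 4, with 1 at an adjusted p under 0.01, 2 to 5 with 1 array left out and 4 or 5 otherwise. The cause of these changes was not tested beyond what each setting changes. Same-numbered arrays of different groups had residual correlations from -0.08 to 0.09 (median 0.02). Differently numbered arrays had correlations from -0.10 to 0.09 (median -0.01). Values this small cannot settle whether the numbers pair the arrays. With the replicate block 9 members passed in IDL, 1 in DP and 4 in the interaction, against 10, 1 and 4 without it. Of the 36 members, 21 met the rule under all 3 scalings, while 9 missed it after quantile normalization, 4 after reference centring and 2 after median centring. No called difference turned its direction in the settings run, whereas small DP differences from light did, in 7 members at day 3 and 9 at day 6 after quantile normalization. IDL differences from light turned in 0 members under these 3 scalings.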

Other observations

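Beside the 36 members, other probe sets met the same rule, 46 with no gene in the annotation and 3 with several. They are not named here.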
